A study of Mus musculus with 16 samples.

Results

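The genes of the microRNA pathway described here were 10 of the 17951 genes in the deposited table, taken by symbol: the nuclear processing genes Drosha and Dgcr8, the export gene Xpo5, the dicing genes Dicer1, Tarbp2 and Prkra, and the Argonaute genes Ago1, Ago2, Ago3 and Ago4. All 10 were listed and had reads in all 16 libraries, so no member was lost to a filter on low values. RNA had been sequenced from brain microglia sorted as Cd11b+ and Cd45+ from mice injected with Methoxy-X04 (Me-X04), a dye that stains Aβ aggregates and marks the cells that have taken them up. The 16 libraries were 7 WT libraries (Me-X04 negative, aged 2 months by the labels), 5 TG Me-X04- libraries and 4 TG Me-X04+ libraries (both aged 6 months by the labels), and a TG Me-X04- library and the TG Me-X04+ library of its number came from 1 animal, by the labels. The labels give the strain as 5xFAD for all 3 groups. The 5xFAD mice are a transgenic model of Aβ deposition in which the Thy1 promoter, active in neurons, drives the transgenes. In every comparison with WT the genotype and, by the labels, the age cannot be told apart. The study's methods give other ages than the labels, and give them for wild-type and 5xFAD animals together.

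MicroRNAs are short RNAs that silence messenger RNAs. In the nucleus the Microprocessor, made of the RNase III enzyme Drosha and its RNA-binding partner Dgcr8, cuts a hairpin out of the primary transcript. Exportin 5 (Xpo5) carries the hairpin to the cytoplasm, where Dicer, with the double-stranded RNA-binding proteins encoded by Tarbp2 (TRBP) and Prkra (PACT), trims it to a duplex. An Argonaute protein keeps 1 strand as its guide, and GW182 proteins (Tnrc6a, Tnrc6b and Tnrc6c) then link it to the enzymes that shorten and decay the target. Mice that lack Dicer or Dgcr8 die as embryos, and in microglia, as in other macrophages, microRNAs are known to set the strength of inflammatory responses.

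Depth on the listed genes was between 15623664 and 22119327 reads in WT, between 17216633 and 25184600 in TG Me-X04- and between 22430251 and 27579017 in TG Me-X04+. Mitochondrial genes took between 11.0% and 24.1%, between 18.2% and 35.6%, and between 27.2% and 44.8% of these reads. After removal of the group means, the leading principal component held 37.8% of the variance and split the libraries into a set A of 7 and a set B of 9 (WT 1 to 3 and both TG groups 1 and 2 in set A), which is described beside each result it touches. The study's methods name a HiSeq sequencer for the microglia of 5xFAD mice and a NextSeq, with longer reads, for samples added later. Which libraries these were, and so whether a set is a sequencing run, was not given in the sources used here. The 8 microglia markers summed to between 3952 and 7996 RPKM over all libraries. Against this, the summed RPKM of the markers of 7 other cell types was at most 22.2 (monocytes and neutrophils, 3 of 4 genes listed), and no listed marker was at 0 reads throughout a group, while Slc17a7, Gad1, Gad2, Gja1, Mog, Cldn5, Ly6c1, Ly6c2, Cd3e and Cd3d were among the markers not listed in the table. Some of these sums moved with the groups. Endothelial markers (2 of 4 listed) had a median summed RPKM of 9.58 for WT (2.27 to 12.5), 1.60 for TG Me-X04- libraries (1.19 to 1.98) and 1.59 for TG Me-X04+ libraries (1.13 to 7.59). For border macrophages (4 of 4 listed) these were 2.43 (1.24 to 3.73), 2.21 (1.37 to 6.17) and 7.85 (1.02 to 18.4), and for monocytes and neutrophils 3.39 (2.40 to 15.8), 2.41 (1.70 to 22.2) and 7.07 (1.25 to 8.58). Neuron markers (3 of 6 listed) had medians of 0.865, 0.685 and 0.164. Their part in the comparisons below, the Tarbp2 result included, was not tested.

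At the level of the transcript, 9 of the 10 genes did not pass the test in any comparison, and the exception was Tarbp2, which fell in TG Me-X04+ against WT. In TG Me-X04+ vs TG Me-X04-, 0 of 10 members were called DE (adjusted p under 0.05 by limma and an absolute log2FC of at least 0.7), where 5.49% of all genes were called. At an unadjusted limma p under 0.05, 1 of 10 members passed (Tarbp2), against 18.7% of all genes. With the animal as a block, 1 of 10 was called there (Tarbp2, lower), where 11.8% of all genes were. In TG Me-X04- vs WT, 0 of 10 were called by limma and 0 of 10 had an unadjusted p under 0.05, against 0.201% and 5.18% of all genes. In TG Me-X04+ vs WT, 1 of 10 was called (Tarbp2, lower), where 14.3% of all genes were called and 6.02% of all genes were called lower, and where 27.8% had an unadjusted p under 0.05. In none of the 3 comparisons did the groups separate for any member, while they did for 7.93%, 1.06% and 10.5% of all genes. With 10 members, a count of 0 or 1 is near what these shares give.

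**Figure D1:**
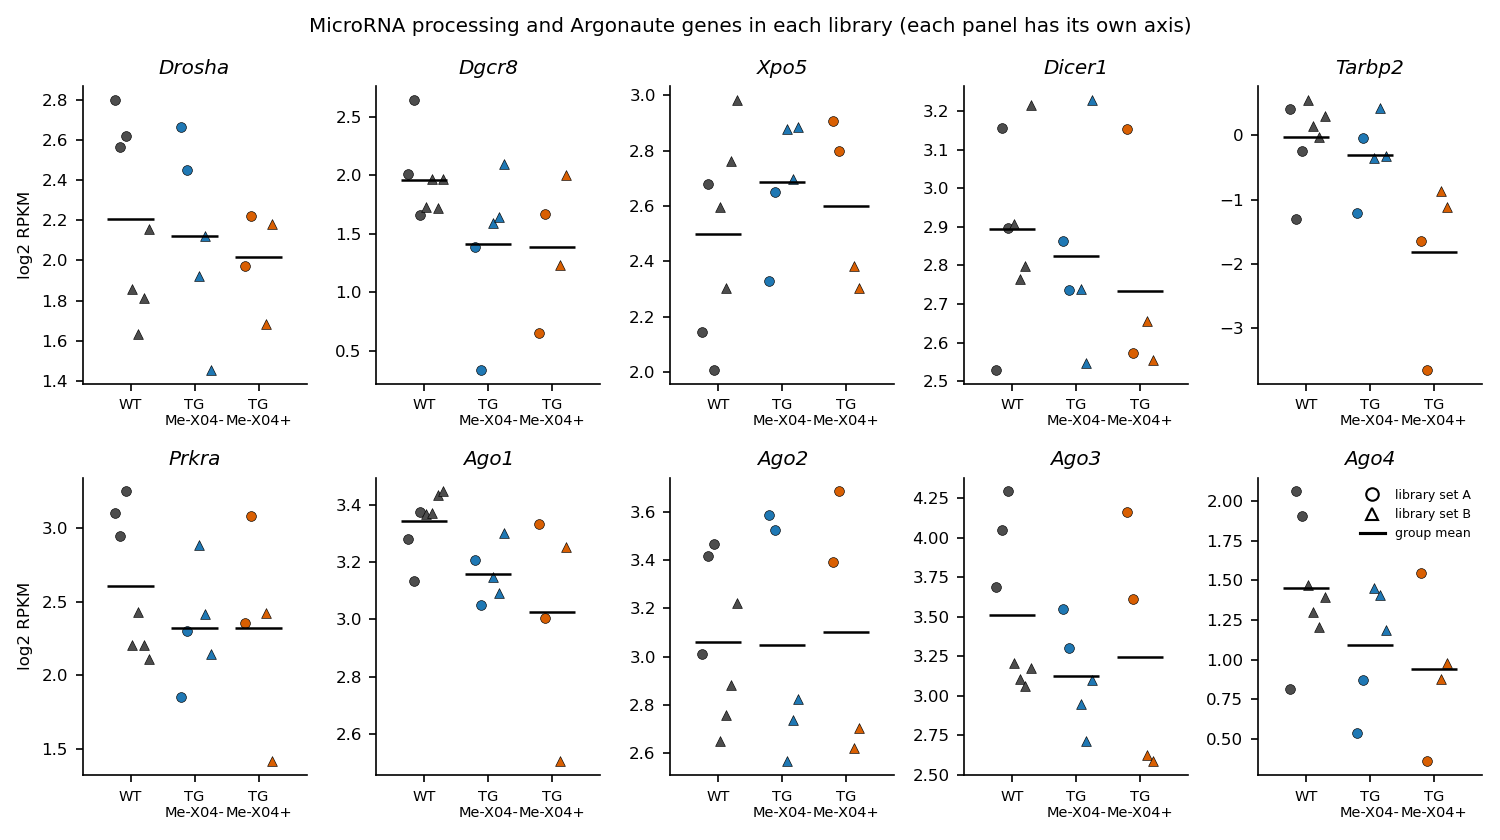
Log2 RPKM (vertical axis, a separate scale in each panel) of the 10 genes in each of the 16 libraries, by group (horizontal axis), with circles for library set A, triangles for library set B and a line at the group mean. The groups overlap in every panel, Tarbp2 has its lowest group mean in TG Me-X04+, and the circles of Ago3 lie above all of its triangles.

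The median log2FC of the 10 members was -0.09 in TG Me-X04+ vs TG Me-X04-, as it was over all genes (-0.09). It was -0.23 in TG Me-X04- vs WT (all genes 0.01) and -0.28 in TG Me-X04+ vs WT (all genes -0.11), with 9 and 8 of 10 members lower, beside 48.4% and 55.9% of all genes. The 2 comparisons with WT share the WT libraries. For the 9 members other than Tarbp2, the log2FC in TG Me-X04+ vs TG Me-X04- lay between -0.15 and 0.12, and their 95% intervals reached from -0.84 to 0.85, so changes of up to 1.80-fold could not have been told from none. The smallest limma adjusted p among these 9 genes was 0.764 in TG Me-X04+ vs TG Me-X04-, 0.999 in TG Me-X04- vs WT and 0.255 in TG Me-X04+ vs WT.

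**Figure D2:**
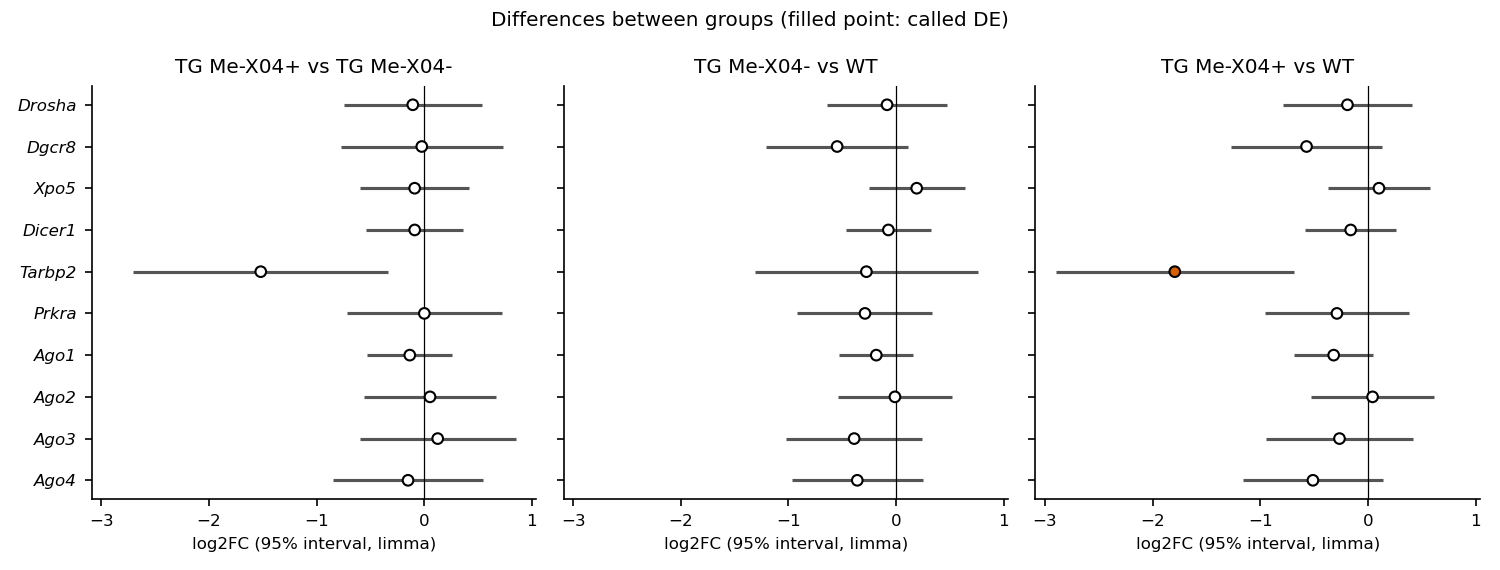
Log2FC of the 10 genes (horizontal axis) in the 3 comparisons, with 95% intervals from limma, where a filled point is a gene called DE. The intervals of 9 genes cross 0 in all 3 comparisons, and the Tarbp2 interval lies below 0 in both comparisons with TG Me-X04+.

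Per kilobase, the Argonaute genes Ago3, Ago1 and Ago2 stood highest, with mean levels over the 16 libraries of 3.32 ± 0.53, 3.21 ± 0.23 and 3.07 ± 0.39 log2 RPKM (SD, n = 16). Dicer1 (2.83 ± 0.24), Xpo5 (2.58 ± 0.30), Prkra (2.45 ± 0.50) and Drosha (2.13 ± 0.40) followed. Dgcr8 (1.65 ± 0.56) and Ago4 (1.21 ± 0.46) were lower, and Tarbp2 was lowest at -0.56 ± 1.07, in all 16 libraries. The step from Ago4 down to Tarbp2, 1.77 ± 1.00 on the log2 scale, was the only one between neighbours that exceeded the SD of its own difference. The other neighbours in this order exchanged places, the first of each pair being higher in 8 to 13 of 16 libraries. The places of Xpo5 and Dicer1 depend on gene length: the deposited lengths are 3709 and 9851 bases, while the exons of the later annotation at hand cover 6859 and 16750 bases, which for the same reads would put their levels lower by 0.89 and 0.77 on the log2 scale. The deposited lengths of the other 8 members were within 0.08 of that annotation on the log2 scale. These lengths count all annotated exons. For Tarbp2 the 4549 bases cover most of its locus (chr15:102518192-102523676), and a shorter length would put its level higher. How that bears on its step below Ago4 was not tested.

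Drosha (chr15:12824815-12935291, plus strand, GRCm38), the enzyme of the Microprocessor, ranged in log2 RPKM from 1.63 through a median of 2.16 to 2.80 in the 7 WT libraries. It was 2.66, 2.45, 1.92, 2.12 and 1.45 in TG Me-X04- and 1.97, 2.22, 1.68 and 2.18 in TG Me-X04+. The TG Me-X04+ libraries lay inside the range of both other groups, and none of them reached its upper part. Its log2FC was -0.11 ± 0.30 (SE) in TG Me-X04+ vs TG Me-X04-, and against WT it was -0.19 ± 0.28 for TG Me-X04+ (limma adjusted p 0.894 and 0.722). Set A was higher than set B by 0.80 in WT, by 0.72 for TG Me-X04- and by 0.16 for TG Me-X04+. Within set A the TG Me-X04+ mean differed by -0.46 from TG Me-X04- and by -0.57 from WT, and within set B by 0.10 and 0.07.

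Dgcr8 (chr16:18253948-18289246, minus strand), which recognises the hairpin for Drosha, ranged from 1.66 through a median of 1.97 to 2.65 log2 RPKM in WT. The TG Me-X04- libraries had 1.39, 0.34, 1.59, 1.64 and 2.10, and the TG Me-X04+ libraries 0.65, 1.67, 1.23 and 2.00. The lowest values, 0.34 (181 reads) and 0.65 (150 reads), belonged to set A libraries of 2 different animals, and both TG groups reached into the WT range. Both TG groups had lower means than WT without passing the test: the log2FC was -0.55 ± 0.31 for TG Me-X04- and -0.57 ± 0.33 for TG Me-X04+ (limma adjusted p 0.999 and 0.292). Within set A these differences were -1.25 and -0.95, and within set B they were -0.07 and -0.23. Dgcr8 shares 825 of its 7696 exonic bases (10.7%) with Trmt2a on the opposite strand, and since the strand setting of the counting was not given in the sources used here, reads from that stretch cannot be assigned to either gene.

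Dgcr8 is also a host of microRNA hairpins, which the Microprocessor is known to cut from the Dgcr8 transcript itself. The hairpin of mmu-miR-1306 lies at chr16:18284239-18284317 on the minus strand, inside a coding exon of Dgcr8 and on its strand. The hairpin of mmu-miR-3618 lies at chr16:18284550-18284637 in an untranslated stretch of a Dgcr8 exon, also on its strand, and is not shown. The mature strands of mmu-miR-1306, which lie inside the coding exon, are shown. They are from RefSeq (GRCm38.p6), with bases 2 to 8, the seed that pairs with targets, in capitals.
mmu-miR-1306-5p: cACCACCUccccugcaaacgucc
mmu-miR-1306-3p: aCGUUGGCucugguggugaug
The 5p strand lies at chr16:18284288-18284310 and the 3p strand at chr16:18284248-18284268, and their seeds differ. The mature microRNAs themselves were not measured in these libraries, so the Dgcr8 values above speak of the host transcript only. Of the other members, Xpo5 holds mmu-miR-693 in an intron. Drosha shares 72 exonic bases (1.21%) with Gm47288, which is annotated as a miRNA gene on its strand and was itself listed, at a median of 1.29 log2 RPKM.

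The log2 ratio of Drosha to Dgcr8 within a library, which does not depend on how the library was scaled, ran from -0.34 to 0.96 in WT, from -0.65 to 2.11 in TG Me-X04-, while TG Me-X04+ libraries had at least 0.18, with a median of 0.50. The groups overlapped. By set, the mean was 0.99 ± 0.69 (SD) in the 7 set A libraries and 0.10 ± 0.37 in the 9 set B libraries.

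Xpo5 (chr17:46202782-46243598, plus strand), the exporter, was between 2.01 and 2.98 log2 RPKM in WT, with a median of 2.60. It was 2.33, 2.65, 2.88, 2.70 and 2.89 in TG Me-X04- and 2.91, 2.80, 2.38 and 2.30 in TG Me-X04+. The TG Me-X04+ libraries thus covered much of the range of the others, with their set A libraries above their set B libraries. Against TG Me-X04-, the set A difference was 0.36 and the set B difference -0.48, and pooled it was -0.09 ± 0.24 (SE). Xpo5 was the 1 member whose mean was above WT in TG Me-X04-, by 0.19 ± 0.21 (limma adjusted p 0.999).

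Dicer1 (chr12:104687742-104751952, minus strand) was the steadiest of the processing genes, with values from 2.53 through a median of 2.90 to 3.22 log2 RPKM in WT. It stood at 2.86, 2.74, 2.74, 2.55 and 3.23 in TG Me-X04- and at 3.15, 2.57, 2.66 and 2.56 in TG Me-X04+. All 3 groups covered the same span. The log2FC was -0.09 in TG Me-X04+ vs TG Me-X04- (95% interval -0.54 to 0.36), -0.07 in TG Me-X04- vs WT (-0.46 to 0.32) and -0.16 in TG Me-X04+ vs WT (-0.58 to 0.26). In fold terms, a change in TG Me-X04+ vs TG Me-X04- outside 0.688 to 1.28 lies beyond the 95% interval.

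Tarbp2 (chr15:102518192-102523676, plus strand), whose product TRBP binds Dicer and helps hand the duplex to Argonaute, had its lowest group mean in TG Me-X04+. In the fit without a block it passed the test against WT but not against TG Me-X04-. In WT its log2 RPKM was 0.40, -1.30 and -0.24 in set A and 0.55, 0.14, -0.03 and 0.30 in set B. In TG Me-X04- it was -1.20 and -0.04 in set A and -0.36, 0.42 and -0.32 in set B. In TG Me-X04+ it was -1.64 and -3.65 in set A and -0.86 and -1.12 in set B. The TG Me-X04+ libraries were the lowest of their own set in both sets, which were defined from these same libraries. Over all libraries the groups overlapped: 2 set A libraries, WT 2 and TG Me-X04- 1, lay below the TG Me-X04+ libraries of set B. Over all genes, TG Me-X04+ lay apart from WT in the same direction in both sets for 20.1%, and from TG Me-X04- for 17.5%. No member lay so apart in TG Me-X04- vs WT, where 3.06% of all genes did.

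From WT to TG Me-X04+, Tarbp2 fell by 1.79 on the log2 scale (SE 0.52, 95% interval of the log2FC -2.90 to -0.69, limma adjusted p 0.0277), that is 3.47-fold lower (fold 0.288, interval 0.134 to 0.621). Against TG Me-X04- the log2FC was -1.52 ± 0.56 (SE), with an unadjusted limma p of 0.0150 and a limma adjusted p of 0.137, so that difference did not pass. With a term for the library sets the log2FC was -1.43 ± 0.49 (SE, limma adjusted p 0.0622) and it did not pass either. In a fit with the animal as a block, added after the data were seen, the log2FC was -1.52 ± 0.48 (SE, limma adjusted p 0.0441) and it passed. That call was lost without TG Me-X04+ replicate 2 (log2FC -0.88, limma adjusted p 0.182) or replicate 4 (0.0513), and without TG Me-X04- replicate 2 (0.129), 3 (0.0583), 4 (0.102) or 5 (0.0684), and was kept without any of the other 3 TG libraries. In the 4 animals that gave both sorts, the TG Me-X04+ library was lower than the TG Me-X04- library in 4 of 4, by -0.44, -3.61, -0.51 and -1.55. TG Me-X04- did not differ from WT beyond the spread (log2FC -0.28 ± 0.49). Within set A the TG Me-X04+ mean minus the WT mean was -2.27, and within set B it was -1.23, on the log2 scale. In such bulk samples, fewer cells that carry a transcript and less of it per cell cannot be told apart.

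The reads behind the Tarbp2 values were few: between 29 and 151 in WT, between 31 and 152 in TG Me-X04-, and 18, 4, 55 and 47 in TG Me-X04+. Without TG Me-X04+ replicate 2, the library with 4 reads, the log2FC against WT was -1.19 (limma adjusted p 0.108) and the call was lost, as it was without WT replicate 4 (0.0543) or WT replicate 7 (0.0512). With the animal as a block, each WT library being an animal of its own, the call stood (0.0354). With the replicate number as a block it was lost (0.0715), but that fit also ties each WT library to TG libraries of other animals that share only its number. The 2 TG Me-X04+ libraries of set A were also those with the most genes at 0 reads (1831 and 1781, against 55 to 1381 over the other 14 libraries) and with the highest mitochondrial shares (41.4% and 44.8%). The part of these in the Tarbp2 values was not tested. Of the stretches of 50 bases in Tarbp2 transcripts, 14.3% also occur in Gm18584, a processed pseudogene (chr6:47432126-47433089, minus strand). Gm18584 was not among the listed genes, so its level could not be set beside that of Tarbp2.

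Prkra (chr2:76629898-76648015, minus strand), whose product PACT is the other double-stranded RNA-binding partner of Dicer, did not follow Tarbp2. Its log2 RPKM ran from 2.11 through a median of 2.43 to 3.25 in WT, and it was 1.85, 2.30, 2.88, 2.41 and 2.14 in TG Me-X04- and 2.36, 3.08, 2.42 and 1.41 in TG Me-X04+. The means of both TG groups were 2.32, and the groups overlapped throughout. The 3 WT libraries of set A were the highest in WT, and the within-animal differences of TG Me-X04+ from TG Me-X04- had a median of 0.02, with 2 of 4 animals lower. Its log2FC against WT was -0.29 ± 0.30 (SE) for TG Me-X04- and -0.29 ± 0.32 for TG Me-X04+ (limma adjusted p 0.999 and 0.617).

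The log2 ratio of Dicer1 to Tarbp2 within a library had its highest values in TG Me-X04+, where Tarbp2 was lowest. It was between 2.13 and 4.45 in WT, between 2.12 and 4.07 in TG Me-X04-, and between 3.52 and 6.22 in TG Me-X04+. The ranges overlapped, through the set A libraries WT 2 and TG Me-X04- 1 and the set B library TG Me-X04- 5 (3.55). The log2 ratio of Dicer1 to Prkra covered -0.57 to 1.10 in WT, -0.14 to 1.08 in TG Me-X04- and -0.51 to 1.14 in TG Me-X04+. These ranges overlapped. The ratio of Xpo5 to Dicer1 was below 0 in all 7 WT libraries (-0.89 to -0.04), between -0.53 and 0.15 in TG Me-X04- and between -0.27 and 0.23 in TG Me-X04+, again with overlap.

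The Argonaute proteins hold the guide strand; Ago2 is the member known to cut a fully paired target, and Ago1, Ago3 and Ago4 lie side by side on chromosome 4 (Ago3 at chr4:126331704-126429556, Ago1 at chr4:126435012-126468583 and Ago4 at chr4:126489541-126533472, all on the minus strand). Ago2 lies apart at chr15:73095844-73184935 on the minus strand. Of 50-base stretches, Ago1 shared 1.53% and Ago3 0.731% with another Argonaute, so few reads could have been exchanged between them. None of the 4 genes passed the test in any comparison.

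Ago1 was the member with the least spread in WT, from 3.13 through a median of 3.37 to 3.45 log2 RPKM (SD 0.11, n = 7). The TG Me-X04- libraries had 3.21, 3.05, 3.15, 3.09 and 3.30, and the TG Me-X04+ libraries 3.33, 3.01, 2.51 and 3.25. The TG libraries lay mostly in the lower part of the WT range or below it. The log2FC was -0.18 ± 0.16 (SE) in TG Me-X04- vs WT and -0.32 ± 0.18 in TG Me-X04+ vs WT (limma adjusted p 0.999 and 0.255), and -0.13 ± 0.19 in TG Me-X04+ vs TG Me-X04-. When the libraries were scaled by the reads outside mitochondrial genes, the Ago1 log2FC in TG Me-X04+ vs WT was -0.62 with a limma adjusted p of 0.0335, short of the fold threshold, while the median over all genes moved to -0.41.

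Ago2 had nearly the same mean in all 3 groups: 3.06 ± 0.32 log2 RPKM in WT (SD, n = 7), 3.05 ± 0.47 in TG Me-X04- (n = 5) and 3.10 ± 0.52 in TG Me-X04+ (n = 4). Its values ran from 2.65 through 3.01 to 3.47 in WT, were 3.59, 3.52, 2.56, 2.74 and 2.83 in TG Me-X04-, and 3.39, 3.69, 2.62 and 2.70 in TG Me-X04+. The first 2 libraries of both TG groups, those of set A, were the high ones. Set A was above set B by 0.42 in WT, by 0.85 for TG Me-X04- and by 0.88 for TG Me-X04+. In the same animals, the TG Me-X04+ library differed from the TG Me-X04- library by between -0.19 and 0.16 only, the narrowest range among the members. The log2FC in TG Me-X04+ vs TG Me-X04- was 0.05, with a 95% interval of -0.56 to 0.66. Ago2 shares 219 exonic bases (1.56%) with Chrac1 on the opposite strand.

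Ago3 had the highest level per kilobase, between 3.06 and 4.30 log2 RPKM in WT with a median of 3.21. It was 3.55, 3.30, 2.95, 2.71 and 3.10 in TG Me-X04-, and 4.17, 3.61, 2.63 and 2.58 in TG Me-X04+. The spread within a group followed the sets: over all groups the 7 set A libraries lay between 3.30 and 4.30 and the 9 set B libraries between 2.58 and 3.21, without overlap. Of all genes, 10.1% separated the sets in this way, and Ago3 was the 1 member that did. The log2FC was 0.12 ± 0.34 (SE) in TG Me-X04+ vs TG Me-X04-, made of 0.47 within set A and -0.32 within set B. Against WT it was -0.39 ± 0.30 for TG Me-X04- and -0.27 ± 0.32 for TG Me-X04+ (limma adjusted p 0.999 and 0.654).

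Ago4 was the lowest Argonaute, at 0.82 to 2.06 log2 RPKM in WT (median 1.40), with 0.54, 0.87, 1.45, 1.41 and 1.19 in TG Me-X04- and 1.55, 0.36, 0.88 and 0.98 in TG Me-X04+. The lowest value, 0.36, came from 132 reads. Both TG groups reached below the WT range and overlapped it. The log2FC was -0.36 ± 0.29 (SE) in TG Me-X04- vs WT, -0.51 ± 0.31 in TG Me-X04+ vs WT and -0.15 ± 0.33 in TG Me-X04+ vs TG Me-X04- (limma adjusted p 0.999, 0.307 and 0.858).

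As shares of the summed Argonaute RPKM, Ago3 and Ago1 had similar parts and Ago4 a small one. In WT the mean shares were 31.3% ± 6.5 for Ago1, 25.3% ± 2.3 for Ago2, 35.0% ± 6.4 for Ago3 and 8.41% ± 1.57 for Ago4 (SD, n = 7). In TG Me-X04- they were 31.7% ± 4.7, 29.5% ± 5.8, 30.7% ± 2.5 and 7.98% ± 2.97 (n = 5), and in TG Me-X04+ 29.0% ± 7.5, 30.2% ± 5.3, 33.7% ± 7.7 and 7.06% ± 2.40 (n = 4). The groups overlapped for all 4 shares. The mean Ago2 share of both TG groups lay above the WT mean by more than the WT SD, but by less than the SD of the TG group itself. The Ago2 share ran from 21.9% to 29.2% in WT, from 23.4% to 36.6% in TG Me-X04- and from 25.3% to 37.4% in TG Me-X04+, the upper ends lying in the TG groups. The 3 libraries with an Ago2 share of 34.9%, 36.6% and 37.4% were TG Me-X04- 1 and 2 and TG Me-X04+ 2, all of set A. Ago1 took 25.1% ± 2.8 of the set A libraries and 35.4% ± 3.0 of the set B libraries, and Ago3 took 38.4% ± 4.9 and 29.4% ± 2.3 (SD). Summed over the 4 genes, RPKM was 33.6 ± 6.5 for WT, 28.7 ± 4.2 for TG Me-X04- and 29.9 ± 9.8 for TG Me-X04+ (SD).

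**Figure D3:**
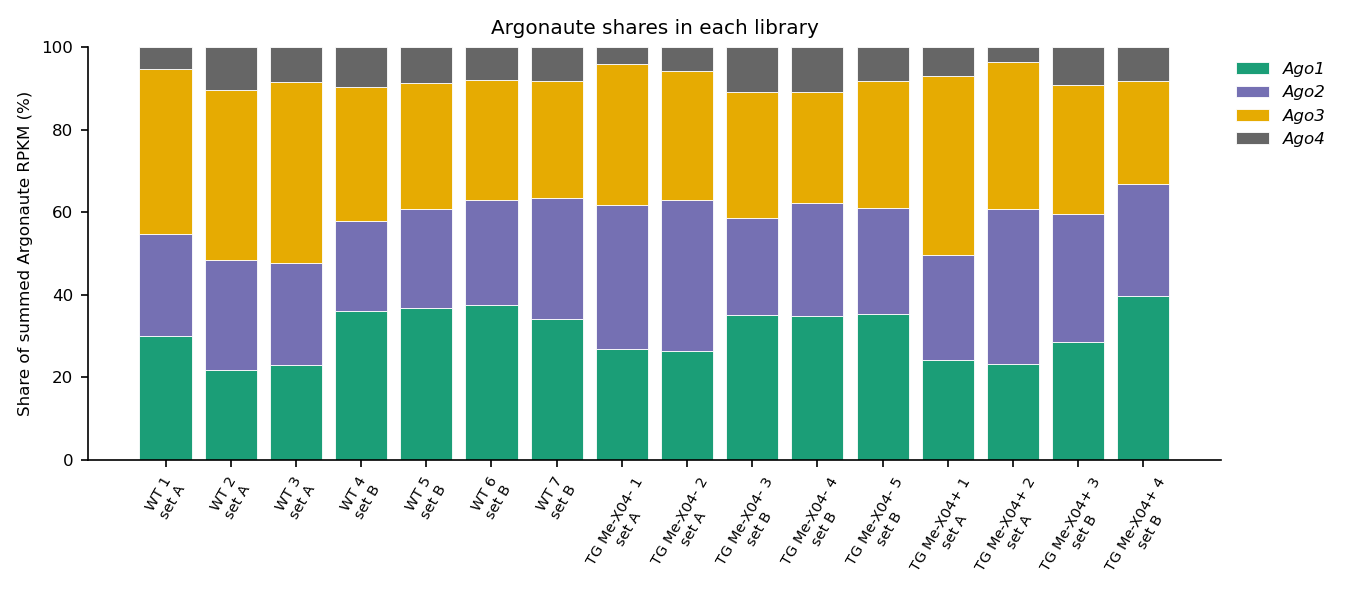
Share of Ago1, Ago2, Ago3 and Ago4 in the summed linear RPKM of these 4 genes (vertical axis, percent) in each of the 16 libraries, ordered by group and by library set. Ago1 takes 21.8% to 30.0% in the set A libraries and 28.6% to 39.7% in those of set B, in all 3 groups.

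The library sets were set beside the groups for all 10 members. Averaged over the 3 groups, set A minus set B was largest for Tarbp2 (-0.94), Ago3 (0.89) and Ago2 (0.72), and Dicer1 (0.05), Ago1 (0.03) and Xpo5 (-0.07) differed least. The median size of this difference over all genes was 0.63, which 3 of 10 members exceeded. The sets were defined from these libraries, so their difference carries no test.

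**Figure D4:**
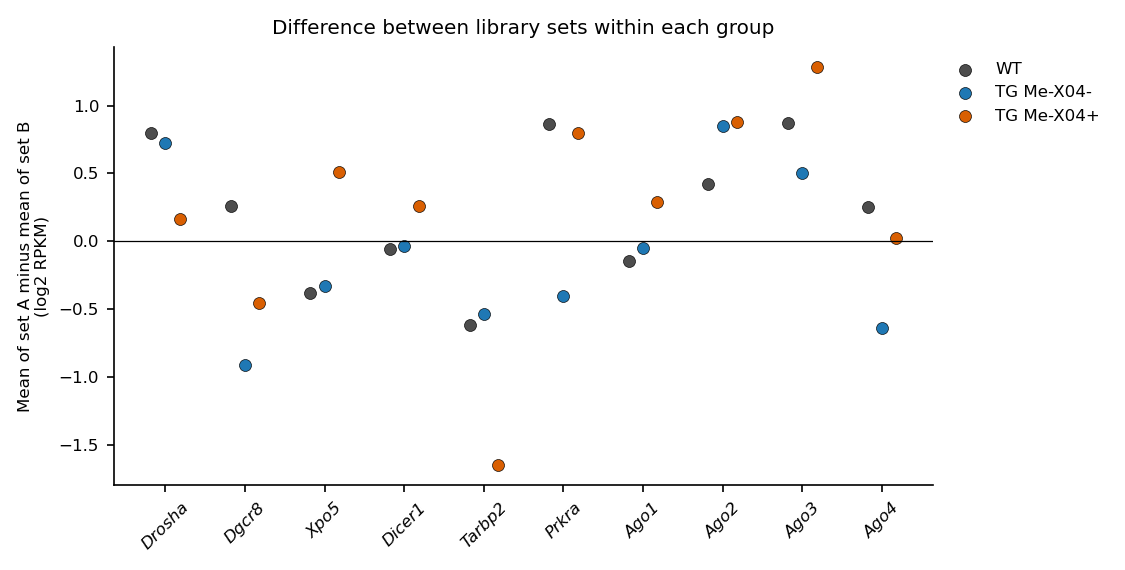
Mean log2 RPKM of the set A libraries minus that of the set B libraries (vertical axis) for each gene (horizontal axis), with 1 point for each group. Ago2, Ago3 and Drosha are higher in set A in all 3 groups, Tarbp2 is lower in all 3, and the other 6 genes change sign between groups.

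For each member, the gene with a mean log2 RPKM of at least 0 whose values over the 16 libraries were most like its own was found among 13202 genes. Ago3 was most like Ints8 (Pearson r = 0.977 over 16 libraries), with r = 0.958 within set A and 0.971 within set B. Ago2 was most like Spast (r = 0.942), Tarbp2 most like Gm17970 (0.908) and Ago4 most like Gm36989 (0.885). The others were Drosha with Smyd3 (0.883), Dgcr8 with Il1rl2 (0.879), Ago1 with Ston2 (0.872), Prkra with Cebpzos (0.872), Xpo5 with Dap3 (0.789) and Dicer1 with Prkdc (0.741). Not all of these held within the sets: r was 0.405 within set B for Drosha with Smyd3 and 0.348 within set A for Ago1 with Ston2, and for the pairs other than these 2 and Ago3 with Ints8 it was between 0.563 and 0.974 within a set. These are the highest of many correlations between points that share libraries, groups and sets, and they are given as a description. Spast and Ints8 were higher in set A than in set B by 0.99 and 0.97 on the log2 scale, as Ago2 and Ago3 were, and for Gm17970 set A minus set B was -1.91, with the sign of Tarbp2.

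Beyond the members, 50 genes that work with them were listed by role, and 48 were in the table (Lin28a and Lin28b were not listed). None of the 48 was called by limma in any comparison: 0 of 48 in TG Me-X04+ vs TG Me-X04-, where 1 had an unadjusted p under 0.05, 0 of 48 in TG Me-X04- vs WT, where 2 did, and 0 of 48 in TG Me-X04+ vs WT, where 7 did. Of all genes, 5.49%, 0.201% and 14.3% were called in these comparisons, and 18.7%, 5.18% and 27.8% had an unadjusted p under 0.05. The median log2FC of the 48 was 0.01, -0.10 and -0.09 in these comparisons. In TG Me-X04+ vs TG Me-X04-, 25 were higher and 23 lower, so the list had no common direction there. In TG Me-X04- vs WT and in TG Me-X04+ vs WT, 31 were lower and 17 higher, where 48.4% and 55.9% of all genes were lower. Both of these share the WT libraries. Among genes that passed the adjusted p but not the fold threshold in TG Me-X04+ vs WT were Ddx5 and Srsf3, named after their values were seen. Ddx5, an RNA helicase that assists the Microprocessor, was at 6.99 ± 0.21 log2 RPKM in WT and 6.36 ± 0.26 in TG Me-X04+ (SD), a log2FC of -0.63 ± 0.19 (SE, limma adjusted p 0.0370), and its groups did not overlap. It was the 1 gene of the 48 whose groups lay apart in this comparison, where 10.5% of all genes did. Srsf3, a splicing factor that binds primary microRNA transcripts, had a log2FC of -0.47 ± 0.15 (limma adjusted p 0.0464).

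**Figure D5:**
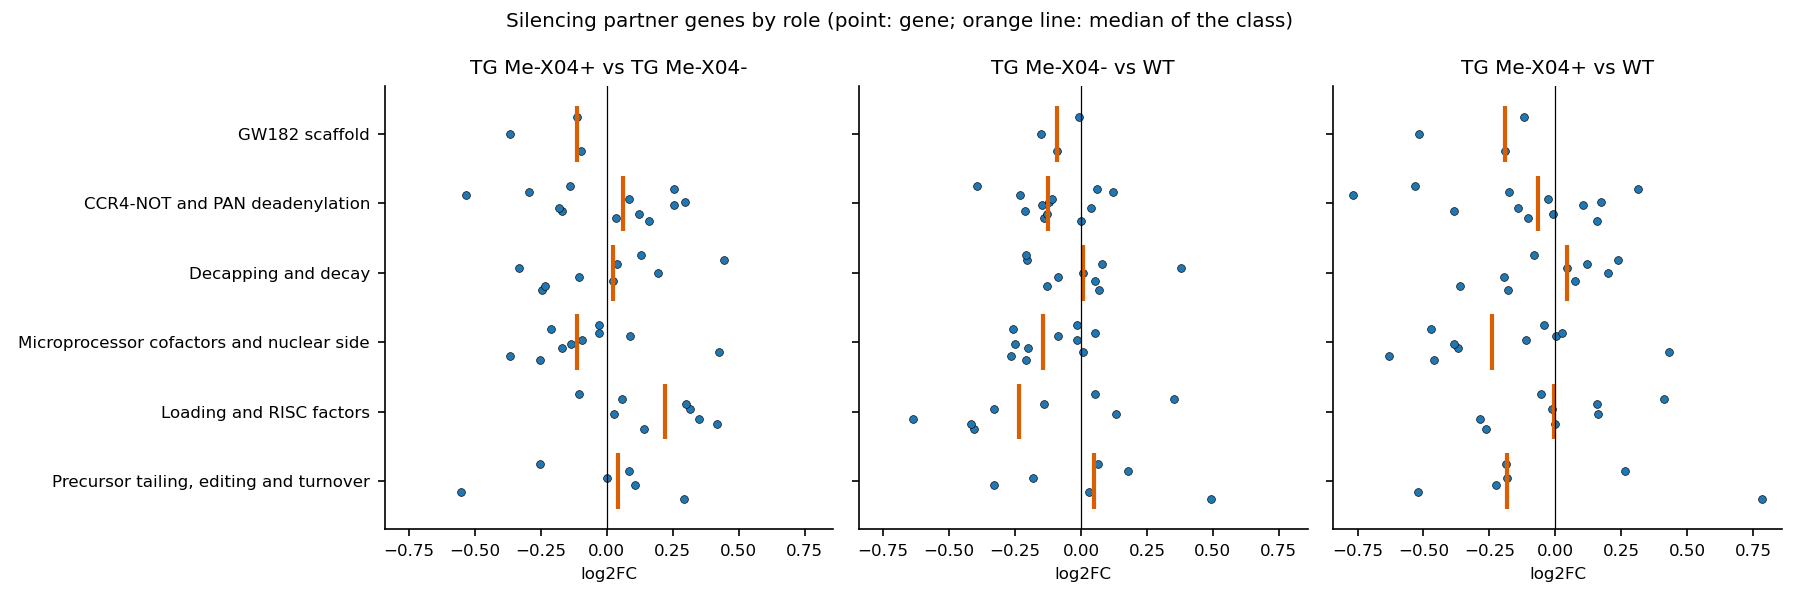
Log2FC (horizontal axis) of 48 genes that work with the members, by role (vertical axis), in the 3 comparisons, with 1 point for each gene and an orange line at the median of each role. All points lie between -0.77 and 0.78, and no gene is called DE.

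By role, the 3 GW182 scaffold genes, which tie Argonaute to the decay enzymes, were all lower in TG Me-X04+ vs TG Me-X04- without passing the test, from Tnrc6b (log2FC -0.37) to Tnrc6a (-0.10). Beside the counts by role given here, 55.6% of all genes were lower in this comparison. Of the 12 deadenylation genes, whose products shorten the tail of the target, 7 were higher and 5 lower, from Cnot8 (-0.53) to Cnot6l (0.30). The 9 decapping and decay genes ran from Edc4 (-0.33) to Lsm14a (0.44), with 5 higher. Of the 10 Microprocessor cofactors and other nuclear genes, 8 were lower, from Ddx5 (-0.37) to Hnrnpa1 (0.42). Of the 8 loading factors, which include the HSP90 chaperones that open Argonaute for the duplex, 7 were higher, from Tsnax (-0.11) to Hsp90aa1 (0.42). Hsp90aa1 was the 1 gene of the list with an unadjusted limma p under 0.05 there (0.0277, adjusted p 0.193), at 3.55 ± 0.19 log2 RPKM for TG Me-X04- and 3.97 ± 0.19 for TG Me-X04+ (SD). It was 3.97 ± 0.18 in WT, so TG Me-X04- was the low group. In TG Me-X04- vs WT its log2FC was -0.42 ± 0.15 (SE, unadjusted limma p 0.0132, adjusted p 0.682). For Hsp90ab1, named after its values were seen, it was -0.64 ± 0.19 there (unadjusted limma p 0.0034, adjusted p 0.388). In TG Me-X04+ vs TG Me-X04-, the 6 listed genes of precursor tailing, editing and turnover ran from Dis3l2 (-0.55) to Adar (0.29).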

How the data were processed

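Values were those deposited for 16 libraries. Per the labels and the methods, the authors trimmed reads (Trim Galore 0.4.4), aligned them to GRCm38 (STAR 2.5.4b, up to 10 positions kept), counted genes (featureCounts) and deposited log2 RPKM after edgeR 3.24.3 TMM scaling, with a small prior, for 17951 genes. Columns of the authors' own comparisons (fold changes, t, p-values, log odds) were not used. The deposited log2 values were fitted with limma 3.58.1 in R 4.3.3 (variance trend, 3 groups, no covariate, two-sided, Benjamini-Hochberg over all genes). The methods' count test was replaced, since the values are log2. The even spacing of a library's linear values gave back whole reads (100% within 0.01 of a whole number), used for depths and an alternative. Libraries are separate animals by their labels, except that a TG Me-X04- and a TG Me-X04+ library of 1 number share an animal label. Within such pairs the correlation of deviations from group means was 0.292 to 0.329. A fit with the animal as a block (limma duplicateCorrelation, consensus correlation 0.386) was added after the data were seen. Both libraries of a pair also lie in the same library set, so neither correlation can tell a shared animal from a shared set. Positions are from Gencode on GRCm38, a later release than the authors'. Members and lists were chosen with earlier results of these data known. All 10 members are named, and from the partner list the genes called and the highest and lowest of each role in TG Me-X04+ vs TG Me-X04-. The fits were tested on simulated data. Python 3.11.15 and matplotlib 3.10.9 drew the figures.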

Additional observations from a re-analysis of the deposited data

Results flagged for a closer look

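Over 57 sets of values (the 10 members, 4 Argonaute shares, 4 ratios and the summed Argonaute RPKM, each in 3 groups), 4 values, from 3 libraries, lay far from the others of their group, where chance alone marks about 1 in 20. Dgcr8 was at 2.65 log2 RPKM in WT 2, with the other 6 WT libraries between 1.66 and 2.02. Tarbp2 was at -1.30 log2 RPKM in the same library, with the other WT libraries between -0.24 and 0.55. Dicer1 was at 3.15 log2 RPKM in TG Me-X04+ 1, with the other 3 libraries of that group between 2.56 and 2.66. The log2 ratio of Xpo5 to Dicer1 was 0.23 in TG Me-X04+ 2 and between -0.27 and -0.24 in the other 3. All 4 values came from set A libraries. Without WT replicate 2, the Tarbp2 log2FC in TG Me-X04+ vs WT was -2.01 (limma adjusted p 0.0137), against -1.79 with it.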

How the results depend on the processing

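In TG Me-X04+ vs TG Me-X04- the count of members called was 0 and became 1 (Tarbp2) with the animal as a replicate block, a fit added after the data were seen in which each WT library is its own animal, and ran from 0 to 1 with a library left out. The block by animal changed no call in the comparisons with WT. No member other than Tarbp2 was called by limma under any alternative run: no variance trend, library weights, quantile normalization, scaling by reads outside mitochondrial genes, log2(value + 1), a filter at a mean log2 value of 0, only the 2 groups, no fold threshold, the replicate number or the animal as a block, a term for the library sets, limma voom on recovered reads, and each library left out. In TG Me-X04+ vs WT the count of members called was 1 and became 0 with log2(value + 1), where the log2FC of Tarbp2 was -0.59 and so under the fold threshold (adjusted p 0.0242), with the filter, which leaves Tarbp2 out, with only the 2 groups (adjusted p 0.0628) and in the fit blocked by replicate number (0.0715), which ties WT libraries to other animals' TG libraries, and ran from 0 to 1 with a library left out. Over all alternatives run, the adjusted p of Tarbp2 there ran from 0.00937 to 0.108. Of 767 alternative values of single members, none of a called gene changed sign, and 94 of uncalled genes did, at sizes of at most 0.39. Of the 48 partner genes, none was called in TG Me-X04+ vs TG Me-X04-, but 2 were with quantile normalization (Ddx5 and Ddx17, lower) and 1 when scaled by reads outside mitochondrial genes (Tnrc6b, lower). In TG Me-X04+ vs WT the count of 0 became 5 with quantile normalization and 6 with that scaling, all lower and Ddx5, Ddx17, Srsf3 and Pan3 in both (of all genes, 14.3% and 17.2% were then called), 2 with no fold threshold (Ddx5 and Srsf3), 1 with the replicate number as a block (Hnrnpa1, higher), 0 with the animal as a block and 2 with the term for the sets (Cnot8 lower, Adar higher), and ran from 0 to 2 with a library left out. These genes were named after their values were seen, and the cause was not tested. The block by number changed no other call. That scaling moved the median log2FC of all genes to -0.49, 0.10 and -0.41 in TG Me-X04+ vs TG Me-X04-, TG Me-X04- vs WT and TG Me-X04+ vs WT, and the part of the genes called that were higher from 62.6% to 20.8% in the first and from 57.8% to 32.8% in the last. Over the alternatives that keep all libraries, between 470 and 2142, between 13 and 175, and between 2034 and 3919 genes of the table were called, against 986, 36 and 2562, and with the animal as a block 2110, 35 and 2561 were. Depth limits Tarbp2 most, with 4 to 152 reads in a library, while the other members had at least 119.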
